A study of Mus musculus with 3 samples.

Results

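The Ifitm genes encode the interferon-induced transmembrane proteins, and 4 of them, Ifitm1, Ifitm2, Ifitm3 and Ifitm10, were followed here out of the 32285 genes measured. They were taken by gene symbol, after earlier results of these data had pointed to NK cells carrying Itga1 and CD8 T cells carrying Havcr2 as cells with high Ifitm levels. Their levels across cell groups and Kaede colours are therefore given as a description without a test, and tests are given only for the comparison of cells with and without transcripts of the interferon-induced gene Ifit3, which took no part in that choice. All the cells were tumor-infiltrating lymphocytes (TILs) from subcutaneous MC38-Ova tumors, a colon adenocarcinoma line that carries ovalbumin, in WT C57BL/6 mice whose cells express the photoconvertible Kaede protein. All tumors were labeled as isotype control treated, 250000 tumor cells had been injected, the tumors were exposed to violet light on day 13, and TILs were taken 48 h later on day 15. Live CD45+ TER119- Kaede+ cells were sorted, CD11b+ NK1.1- cells were left out, and single-cell libraries were made from Kaede-green (KG+) cells, which had entered after the exposure, as Kaede-green 1 and Kaede-green 2, and from Kaede-red (KR+) cells, which had been in the tumor at exposure, as 1 library, Kaede-red. The Kaede-green libraries are labeled as biological replicates, and which mice each library came from is not given in the sources used here.

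IFITM proteins are small membrane proteins that hinder the fusion of enveloped viruses with the cell. IFITM1 sits mainly at the cell surface, whereas IFITM2 and IFITM3 are found mainly in endosomes and lysosomes. Both type I interferon and interferon-γ induce Ifitm1, Ifitm2 and Ifitm3, and IFITM3 is also known from resident memory CD8 T cells, where it persists without ongoing infection. Ifitm10 is a distant relative of little known function. Ifit3, whose product belongs to another family of antiviral proteins, is a standard readout of type I interferon.

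In the GENCODE annotation of GRCm38, the same build as mm10, Ifitm1 (ENSMUSG00000025491) lies at chr7:140967221-140969825 on the plus strand. Ifitm2 (ENSMUSG00000060591) lies at chr7:140954837-140955987 and Ifitm3 (ENSMUSG00000025492) at chr7:141009586-141010770, both on the minus strand, so that these 3 genes fall within 55934 bases. Ifitm10 (ENSMUSG00000045777, chr7:142325837-142373753, minus strand) starts 1315067 bases beyond the end of Ifitm3. Ifit3 is on another chromosome, at chr19:34583531-34588731. Ifitm2 overlaps the gene model Gm45717 and Ifitm10 overlaps Gm49369, each on the same strand, so some of their reads could be left out or assigned to the other model. Of the 50-base stretches of the members' transcripts, 1.42% for Ifitm1, 3.3% for Ifitm2, 5.564% for Ifitm3 and 0% for Ifitm10 were also present in transcripts of another Ifitm gene, so their counts are largely their own.

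The start-site windows of these genes differed in the letters that interferon-activated factors are known to bind. RefSeq windows from 250 bases before to 50 bases after each start were searched on both strands for a core form of the interferon-stimulated response element (ISRE) and for the gamma-activated site (GAS). The first was present in 3.44% of 32851 windows of the mouse genome and the second in 8.3%. Ifit3 and Ifitm3 each held 2 ISRE matches, Ifitm2 held 1, and none was found in the window of Ifitm1 or in the 3 windows of Ifitm10. The matches are shown in capitals, and whether they bear on the levels was not tested. Relative to the start, the ISRE matches begin at −156 and −122 in Ifit3, at −46 in Ifitm2 and at 3 and 20 in Ifitm3. Each sequence is 30 bases, given 5′ to 3′ on the gene's own strand, and a match is a description of letters and not of binding.
Ifit3, ISRE, chr19:34583363-34583392: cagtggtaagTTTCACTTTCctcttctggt
Ifit3, ISRE, chr19:34583397-34583426: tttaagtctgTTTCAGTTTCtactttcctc
Ifitm3, ISRE, chr7:141010706-141010735: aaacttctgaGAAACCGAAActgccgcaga
Ifitm2, ISRE, chr7:140955988-140956017: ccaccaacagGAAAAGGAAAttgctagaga
The other ISRE match of Ifitm3 has the letters GAAAAGGAAA, and 1 GAS match with the letters TTCTGAGAA overlaps the match shown. No GAS match was found in the windows of Ifitm1, Ifitm2, Ifitm10 and Ifit3.

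After filtering, 10000, 11078 and 10865 cells were kept in Kaede-green 1, Kaede-green 2 and Kaede-red, with median unique molecular identifiers (UMIs) per cell of 6628, 8512.5 and 12076. The libraries shared 20 to 36 cell barcodes. Cells were grouped by raw UMIs of marker genes. NK cells had at least 1 Ncr1 UMI and at most 1 Cd3e UMI and numbered 2608, 2676 and 3175. CD8 T cells had at least 2 Cd3e UMIs and at least 1 of both Cd8a and Cd8b1 and numbered 2430, 3476 and 4261. Tregs had at least 2 Cd3e UMIs and at least 1 Foxp3 UMI and numbered 465, 923 and 881. Myeloid cells, of which the sort had removed most, had at least 5 Lyz2 UMIs, at least 3 Cst3 UMIs and at most 1 Cd3e UMI and numbered 30, 94 and 38. Markers that took no part in the definitions were also present. Over the libraries Klrb1c stood at 175 to 366 CPM (UMIs per 1000000 UMIs of the group) in NK cells and at 11.9 to 21.8 CPM in CD8 T cells, and Eomes at 91.0 to 219 against 14.3 to 36.5 CPM. Trac stood at 686 to 729 CPM in CD8 T cells and at 25.9 to 58.9 CPM in NK cells, and Il2ra at 482 to 550 CPM in Tregs and at 76.0 to 94.9 CPM in CD8 T cells. In myeloid cells Csf1r stood at 42.8 to 253 CPM, and C1qb was uneven, at 0 to 442 CPM. Of the kept cells, 467 met both the CD8 T and the Treg definition, and 120 NK cells carried both Itga1 and Itgam. Levels below are CPM from the pooled UMIs of each group within a library, given in the order Kaede-green 1, Kaede-green 2 and Kaede-red. The 3' tags count transcripts without regard to length, so levels can be set side by side between genes as transcript tags. Fewer cells with a transcript and fewer transcripts per cell cannot be told apart in such sums.

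Ifitm1 was the member that separated CD8 T cells from NK cells most widely. In CD8 T cells it stood at 1179, 951 and 1791 CPM, and in NK cells at 69.1, 107 and 228 CPM, so that the CD8 T level was above the NK level in every library, by 4.09, 3.15 and 2.97 on the log2 scale. Ifitm2 did not separate these classes in the same way: it stood at 320, 238 and 537 CPM in CD8 T cells and at 141, 198 and 617 CPM in NK cells, and the order turned in Kaede-red. Ifitm3 was at 238, 225 and 360 CPM in CD8 T cells and at 200, 245 and 437 CPM in NK cells, with log2 ratios of 0.25, −0.13 and −0.28. These groups overlapped for Ifitm2 and Ifitm3, and between them only Ifitm1 and Ifitm10 kept 1 order over the 3 libraries.

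In the Treg group Ifitm1 stood at 237, 222 and 474 CPM, Ifitm2 at 190, 145 and 266 CPM and Ifitm3 at 274, 224 and 307 CPM. The Ifitm1 value came mostly from cells that also met the CD8 T definition. The 77, 214 and 176 cells in both groups, with median UMIs of 15435, 15970 and 18401, held Ifitm1 at 840, 651 and 1298 CPM, whereas Tregs outside the CD8 T definition held it at 63.4, 48.1 and 73.7 CPM. Whether cells in both groups were droplets with more than 1 cell was not tested. Ifitm3 in Tregs was little altered by leaving them out, at 279, 234 and 295 CPM.

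Myeloid cells had the highest Ifitm3 and Ifitm2 of all classes in every library. Ifitm3 reached 3163, 3659 and 6613 CPM there, which was 3.98, 3.90 and 3.92 above NK cells on the log2 scale. Ifitm2 stood at 2403, 2505 and 2812 CPM and Ifitm1 at 855, 1656 and 1000 CPM in the same cells. These were the few cells that the exclusion of CD11b+ NK1.1- cells had left. Ifitm6, a further member of the family on chromosome 7, stood at 200, 258 and 450 CPM in myeloid cells, whereas Ifitm5, Ifitm6 and Ifitm7 together stood at 0.7 to 4.1 CPM in NK cells.

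Ifitm10 had a different order from the rest of the family. It was low in every class, at 28.3, 18.4 and 18.3 CPM in NK cells, at 14.4, 9.49 and 10.2 CPM in CD8 T cells and at 4.58, 3.43 and 3.88 CPM in Tregs. NK cells were above CD8 T cells and CD8 T cells above Tregs in each library. No Ifitm10 UMI was found in myeloid cells, which at 3 counts allows up to 6.11, 1.74 and 5.19 CPM. Over all kept cells Ifitm10 gave 5181 UMIs, against 249667 for Ifitm1, 137839 for Ifitm2 and 133469 for Ifitm3, and Ifitm7 gave 3.

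**Figure D1:**
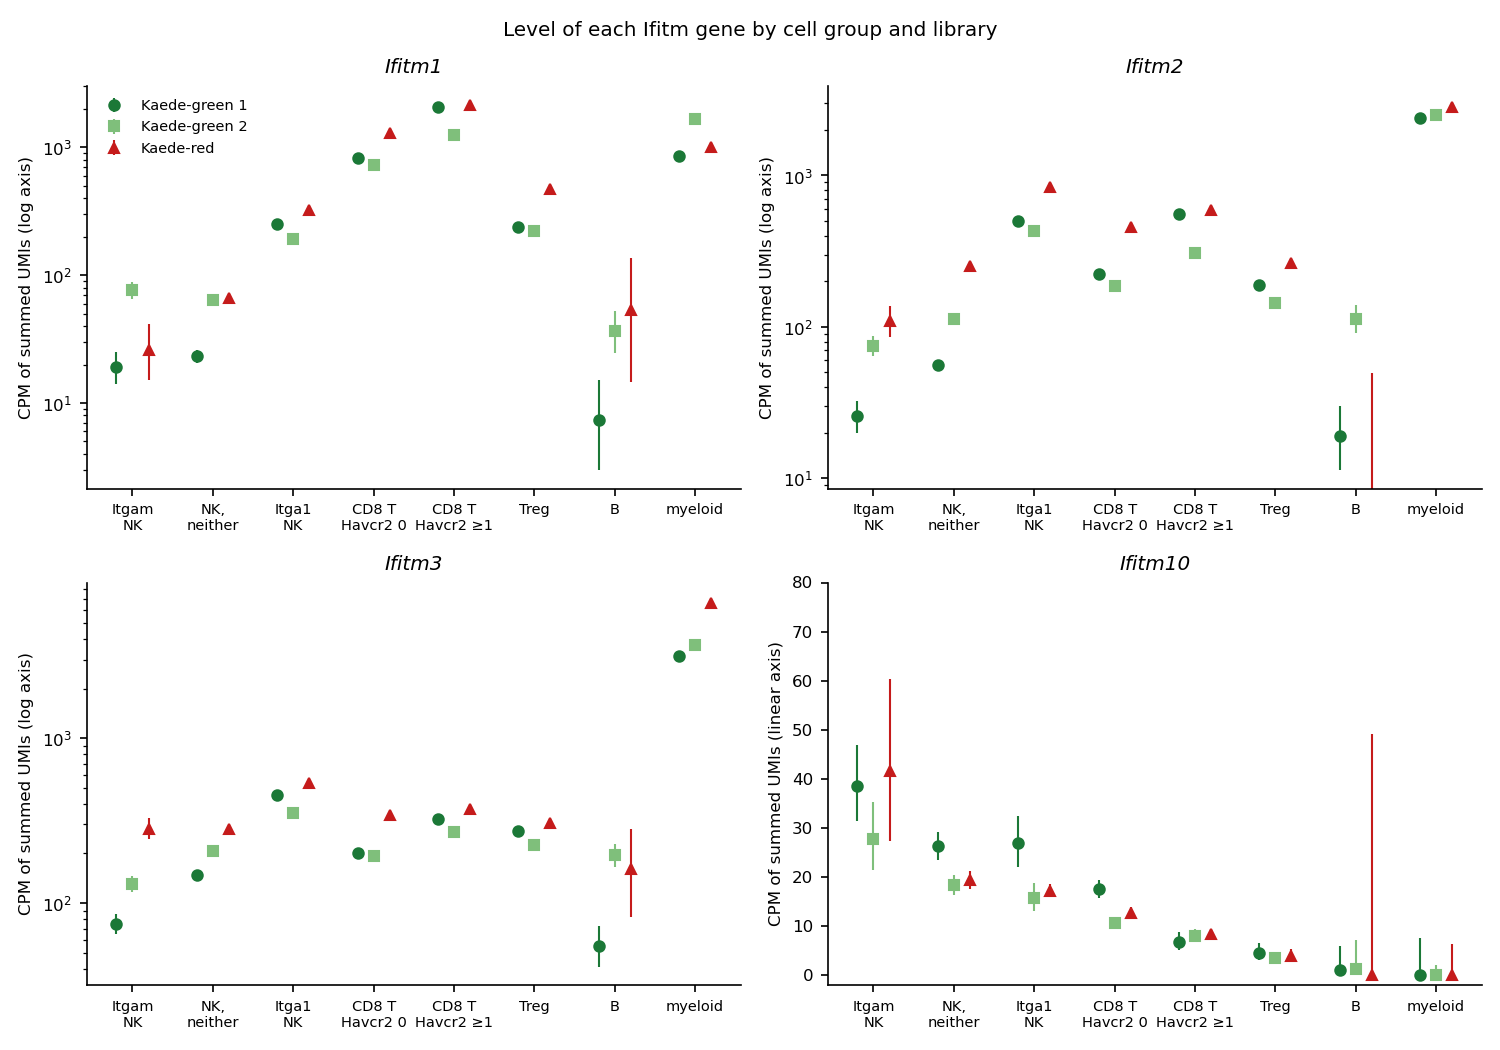
Level of each Ifitm member in CPM (y) by cell group (x), with 1 point per library and exact Poisson intervals of the counts, which cover counting error only. The y axis is linear for Ifitm10 and logarithmic for the other members. Ifitm1 is highest in Havcr2-positive CD8 T cells among the lymphocytes, Ifitm2 and Ifitm3 are highest in myeloid cells, and Ifitm10 is highest in NK cells. Ifitm2 of the 7 Kaede-red B cells is at 0 and off the axis.

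NK cells were then divided by integrin. Itga1 encodes CD49a, a collagen-binding integrin of tissue-resident lymphocytes, and Itgam encodes CD11b, which marks mature circulating NK cells. Itga1 NK cells (at least 1 Itga1 UMI, no Itgam UMI) numbered 315, 491 and 1527, and Itgam NK cells (the reverse) numbered 426, 306 and 76. Ifitm2 stood at 500, 429 and 838 CPM in Itga1 NK cells and at 25.6, 74.7 and 109 CPM in Itgam NK cells. The groups did not overlap, and the mean log2 ratio within libraries was 3.24 ± 0.92 (SD, n = 3). Ifitm1 stood at 251, 191 and 327 CPM against 19.1, 76.0 and 26.2 CPM, with a mean log2 ratio of 2.88 ± 1.34. Ifitm3 stood at 454, 351 and 534 CPM against 74.9, 130 and 283 CPM, with the smallest ratio of the 3, at 1.65 ± 0.86. Ifitm10 went the other way, at 26.9, 15.7 and 17.2 CPM against 38.6, 27.7 and 41.5 CPM, with a mean log2 ratio of −0.88 ± 0.39. NK cells with neither integrin lay between them for Ifitm2 in 3 of 3 libraries, at 55.8, 113 and 254 CPM. This order did not hold in every library for Ifitm1 and Ifitm3. NK cells with neither integrin had at most 66.9 CPM of Ifitm1, below Itgam NK cells in Kaede-green 2. They had at most 280 CPM of Ifitm3, below Itgam NK cells in Kaede-red.

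As background, 26.2% of 6851 genes were higher in Itga1 NK cells in all 3 libraries, 1.75% were at least 2-fold higher in all 3, and 41.2% were lower in all 3. Since the members were chosen with these levels known, nothing is read from where they fall in these shares. Ifit3 did not share the pattern, at 67.3, 55.6 and 26.5 CPM in Itga1 NK cells and at 64.2, 74.7 and 52.3 CPM in Itgam NK cells. Among cells without an Ifit3 UMI the Ifitm2 ratio was 4.19, 4.34 and 5.04, the Ifitm1 ratio 3.21, 1.99 and 3.65 and the Ifitm3 ratio 2.36, 2.80 and 2.32 on the log2 scale.

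The integrin groups also differed in depth, with median UMIs of 9493, 12075 and 24478 in Itga1 NK cells and of 5345, 6717 and 6701 in Itgam NK cells. Among cells of 5000 to 15000 UMIs the log2 ratio was 3.42, 2.28 and 2.56 for Ifitm2, 0.70, 1.87 and 0.98 for Ifitm3 and 0.70, 1.56 and 1.75 for Ifitm1. The levels in Itga1 NK cells were themselves lower in that window, at 78.6, 130 and 175 CPM for Ifitm2, than in Itga1 NK cells of more than 15000 UMIs, at 884, 594 and 898 CPM. Itgam NK cells of more than 15000 UMIs numbered only 5, 17 and 7 and held Ifitm2 at 354, 352 and 397 CPM. They held Ifitm3 at 557, 556 and 897 CPM, against 773, 432 and 562 CPM in Itga1 NK cells of that depth. At that depth Ifitm3 was thus higher in Itgam NK cells in Kaede-green 2 and Kaede-red. Ifitm levels moved with cell depth inside the Itga1 NK group. The part of depth in the difference between the integrin groups beyond this window was not tested. After each cell was thinned to 2000 UMIs, an Ifitm2 UMI was present in 14.0%, 20.0% and 39.4% of Itga1 NK cells and in 2.11%, 6.54% and 7.89% of Itgam NK cells. B cells gave 3.92% and 8.8% in the Kaede-green libraries, with median UMIs of 4043.5 and 4946 before thinning. The Itgam NK share was thus not above that of B cells there. Whether the Ifitm2 UMIs of B cells were their own or background was not tested. In Itgam NK cells 1 cell gave 59.7%, 43.3% and 60.6% of all Ifitm2 UMIs, and the myeloid transcripts Lyz2 (0.8, 64.7 and 103 CPM) and C1qb (0.4, 154 and 26.2 CPM) were present at uneven levels. Without cells that held a UMI of Lyz2, C1qb or Cd79a, Ifitm2 in Itgam NK cells was at 10.5, 61.1 and 45.5 CPM.

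CD8 T cells were divided by Havcr2, which encodes the inhibitory receptor TIM-3 of exhausted-like T cells. Havcr2-positive cells numbered 502, 1217 and 2062, and Havcr2-negative cells 1928, 2259 and 2199. Ifitm1 was at 2052, 1255 and 2159 CPM in Havcr2-positive cells and at 821, 731 and 1290 CPM in Havcr2-negative cells, higher within every library and with a mean log2 ratio of 0.95 ± 0.32 (SD, n = 3). Kaede-green 2 had the lowest Havcr2-positive value, which lay below the Kaede-red value of Havcr2-negative cells. Ifitm2 was at 558, 307 and 594 CPM against 222, 187 and 459 CPM, with a mean log2 ratio of 0.81 ± 0.48. For Ifitm3 the values were 326, 268 and 374 CPM against 202, 193 and 340 CPM, with a mean log2 ratio of 0.43 ± 0.28 that was smallest in Kaede-red, at 0.13. Ifitm10 was lower in Havcr2-positive cells, at 6.84, 8.02 and 8.39 CPM against 17.5, 10.5 and 12.6 CPM. Of 6915 genes, 43.1% were higher in Havcr2-positive cells in all 3 libraries, 0.463% at least 2-fold higher in all 3, and 27.3% lower in all 3.

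Ifit3 was distributed in the opposite direction to Ifitm1 between these CD8 T cells, at 95.3, 108 and 86.6 CPM in Havcr2-positive cells and at 341, 264 and 170 CPM in Havcr2-negative cells. Among CD8 T cells with no Ifit3 UMI, Ifitm1 was still higher with Havcr2, by 1.09, 0.49 and 0.60 on the log2 scale. Havcr2-positive cells were deeper (median UMIs 13509, 13165 and 17911 against 8614, 9712 and 11424). Among cells of 5000 to 15000 UMIs the mean log2 ratio was 1.3 for Ifitm1, 1.02 for Ifitm2 and 0.69 for Ifitm3. Depth was narrowed by this window but not matched. After thinning to 2000 UMIs, an Ifitm1 UMI was found in 59.0%, 47.9% and 53.8% of Havcr2-positive and in 20.8%, 27.0% and 34.3% of Havcr2-negative cells. B cells gave 0.98%, 8.0% and 14.3%, with only 7 B cells in Kaede-red.

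Itga1 NK cells and Havcr2-positive CD8 T cells lay closer to each other in Ifitm2 and Ifitm3 than in Ifitm1. Itga1 NK cells were below in Ifitm1 by log2 ratios of −3.03, −2.71 and −2.73, and above in Ifitm3 by 0.48, 0.39 and 0.52. The Ifitm2 ratio was −0.16, 0.48 and 0.50, which changed sign between libraries.

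By Kaede colour, KR+ cells had higher Ifitm1, Ifitm2 and Ifitm3 than both KG+ libraries in NK and CD8 T cells, while Ifit3 was lower. With 1 Kaede-red library there is no test, and a difference is set beside the difference between the Kaede-green libraries. In NK cells the log2 ratio of Kaede-red to Kaede-green 1 and to Kaede-green 2 was 2.13 and 1.64 for Ifitm2, 1.72 and 1.09 for Ifitm1 and 1.13 and 0.83 for Ifitm3, against 0.48, 0.63 and 0.30 between the Kaede-green libraries. For Ifit3 in NK cells these ratios were −1.54 and −1.23, with −0.31 between the Kaede-green libraries. In CD8 T cells they were 0.60 and 0.91 for Ifitm1, 0.75 and 1.18 for Ifitm2 and 0.60 and 0.68 for Ifitm3, each larger in size than what separated Kaede-green 2 from Kaede-green 1 (−0.31, −0.43 and −0.08). Ifitm10 was not separated by colour in either class, with ratios of −0.63 and −0.01 in NK cells.

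The groups behind these classes were not equally frequent in the libraries, and the colour differences were not the same inside them. Itga1 NK cells made up 1527 of the 3175 Kaede-red NK cells, against 315 of 2608 and 491 of 2676 in the Kaede-green libraries. Inside Itga1 NK cells only Ifitm2 of the 4 members was past the difference between the Kaede-green libraries, at 0.74 and 0.96, and inside the 76 to 426 Itgam NK cells only Ifitm3 was, at 1.92 and 1.12. Inside Havcr2-positive CD8 T cells none was, with Ifitm1 ratios of 0.07 and 0.78 beside −0.71 between the Kaede-green libraries. Inside Havcr2-negative CD8 T cells all 3 were, with 0.65 and 0.82 for Ifitm1, 1.05 and 1.30 for Ifitm2 and 0.75 and 0.82 for Ifitm3. Kaede-red was also the deepest library, and colour and library cannot be told apart. The Ifitm3 level of Kaede-red Itgam NK cells rested on few cells. The 12 of them with Ifit3 gave 129 of the 184 Ifitm3 UMIs, and the top cell gave 38.6% of the 184. After thinning, an Ifitm3 UMI was present in 4.46%, 10.1% and 11.8% of Itgam NK cells in the library order, so Kaede-red lay close to Kaede-green 2.

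The question of whether the family follows Ifit3 was then put to cells of 1 class, divided into those with at least 1 Ifit3 UMI and those with 0. UMIs were summed per library on each side and compared with edgeR's quasi-likelihood test with the library as a block and Benjamini-Hochberg adjustment over all genes tested. The adjusted p then rests on how evenly the difference within a library was repeated over these 3 libraries. The estimate of that spread for each gene also drew on the spread of all genes tested. Ifitm3 was the member that rose with Ifit3 in NK cells, CD8 T cells and Tregs. Ifitm1 and Ifitm2 fell in CD8 T cells, and neither passed the test in NK cells or Tregs. Ifitm10 passed in none. Whether a member passed depended on the settings. In NK cells Ifitm1 was called under 4 of 13 alternative settings, Ifitm2 under 4 and Ifitm10 under 5. The Ifitm1 calls differed in direction, with 3 higher and the other, with Ifit3 counted after thinning, lower (log2 fold change −0.968). In Tregs Ifitm1 was called under 5 of 12 and Ifitm2 under 3, and in CD8 T cells Ifitm10 was called under 1 of 13.

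In NK cells Ifitm3 stood at 139, 208 and 418 CPM without Ifit3 and at 419, 354 and 527 CPM with it, higher in 3 of 3 libraries, with a log2 fold change of 0.89 ± 0.17 (SE) and an adjusted p of 0.00745 (edgeR). The difference was smallest in Kaede-red. Ifitm1 went from 54.1 to 123, from 95.9 to 140 and from 236 to 189 CPM (log2 fold change 0.40 ± 0.20, adjusted p = 0.308, edgeR), so that Kaede-red went the other way. Ifitm2 went from 135 to 165, from 202 to 186 and from 657 to 433 CPM (−0.16 ± 0.13, adjusted p = 0.548, edgeR). The 550, 657 and 565 NK cells with Ifit3 were compared with 2058, 2019 and 2610 without. In this comparison 5.78% of 11429 genes were called higher and 7.79% were called in either direction, and 2.76% of genes had a larger log2 fold change than Ifitm3. Of Ifitm5, Ifitm6 and Ifitm7, 1 gene was tested in NK cells and was called higher, at a log2 fold change of 3.17. In NK cells Ifitm6 gave 157 UMIs, Ifitm5 39 and Ifitm7 0. Ifitm6 stood at a mean of 302 CPM in myeloid cells and 1.93 CPM in NK cells. The Ifitm3 call was kept without cells that held a UMI of Lyz2, C1qb or Cd79a. Whether myeloid transcripts had a part in the Ifitm3 rise was not tested. Among cells of 5000 to 15000 UMIs Ifitm3 was also called, whereas Ifitm2 and Ifitm10 were called lower, at log2 fold changes of −0.45 and −0.46 (adjusted p = 0.0147 and 0.0181, edgeR). The Ifitm3 call was lost with DESeq2 (adjusted p = 0.224) and without the library block (1.0), and its log2 fold change was 0.42 with Ifit3 counted after thinning. Within Itga1 NK cells Ifitm3 was not higher with Ifit3 in every library. There it went from 353 to 344 CPM in Kaede-green 2 and was higher with Ifit3 in the other libraries.

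In CD8 T cells the members moved in opposite directions. Ifitm3 went from 217 to 260, from 182 to 268 and from 297 to 461 CPM. Its log2 fold change was 0.49 ± 0.067 (SE), with an adjusted p of 0.00182 (edgeR). The share of thinned cells with an Ifitm3 UMI did not rise in every library. It went from 16.6% to 15.8%, from 20.5% to 21.4% and from 27.8% to 32.6%. The exact binomial intervals of the sides overlapped in the Kaede-green libraries and not in Kaede-red. Ifitm1 went from 1480 to 853, from 1181 to 719 and from 1845 to 1704 CPM, lower in 3 of 3 libraries, with −0.54 ± 0.11 and an adjusted p of 0.0125 (edgeR). Ifitm2 went from 392 to 242, from 268 to 207 and from 560 to 500 CPM, with −0.40 ± 0.083 and an adjusted p of 0.0136 (edgeR). For both, Kaede-red showed the smallest difference. The call of each was lost without Kaede-green 2, at adjusted p of 0.0984 for Ifitm1 and 0.0809 for Ifitm2 (edgeR), and without the library block (0.718 and 0.814). That of Ifitm1 was also lost with DESeq2 (0.0839) and that of Ifitm2 with Ifit1 in place of Ifit3 (0.0614). The Ifitm3 call was lost without the block (0.603). In this comparison 9.72% of 12417 genes were called higher and 7.55% lower, and 7.57% of genes had a larger log2 fold change than Ifitm3.

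Havcr2-negative cells made up 1106 of 1280, 1269 of 1755 and 970 of 1706 CD8 T cells with Ifit3, but 822 of 1150, 990 of 1721 and 1229 of 2555 without, and Havcr2-negative cells had the lower Ifitm1. Within Havcr2-negative cells Ifitm1 went from 1046 to 628, from 988 to 517 and from 1412 to 1120 CPM. Within Havcr2-positive cells it went from 2226 to 1719, from 1393 to 1073 and from 2134 to 2206 CPM, so that Kaede-red did not fall there. With the Havcr2 side as a further term, chosen after seeing the data, Ifitm1 stayed lower at −0.46 (adjusted p = 0.00629, edgeR), Ifitm3 stayed higher at 0.54 (adjusted p = 0.000218, edgeR) and Ifitm2 was at −0.32 (adjusted p = 0.0665, edgeR).

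In Tregs Ifitm3 went from 162 to 448, from 157 to 313 and from 227 to 445 CPM, higher in 3 of 3 libraries and with no overlap between the sides. This was the largest Ifitm3 difference of the 3 classes, with a log2 fold change of 1.16 ± 0.092 (SE) and an adjusted p of 5.49e-06 (edgeR), although differences between Tregs and the other classes were not tested. In Tregs 1.05% of genes had a larger log2 fold change, and of 10301 genes 5.51% were called higher, 2.23% lower and 7.75% in either direction. Ifitm1 went from 117 to 423, from 209 to 240 and from 444 to 524 CPM (0.73 ± 0.22, adjusted p = 0.0711, edgeR). This Ifitm1 difference came mostly from Kaede-green 1. The sums kept the cells that also met the CD8 T definition. In Kaede-green 1 those cells gave 1190 Ifitm1 UMIs, against 312 from Tregs outside that definition, and held more Ifit3, at 325 against 138 CPM. The Ifitm1 difference therefore cannot be assigned to Tregs. Ifitm2 was at 0.46 ± 0.17 (adjusted p = 0.127, edgeR).

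**Figure D2:**
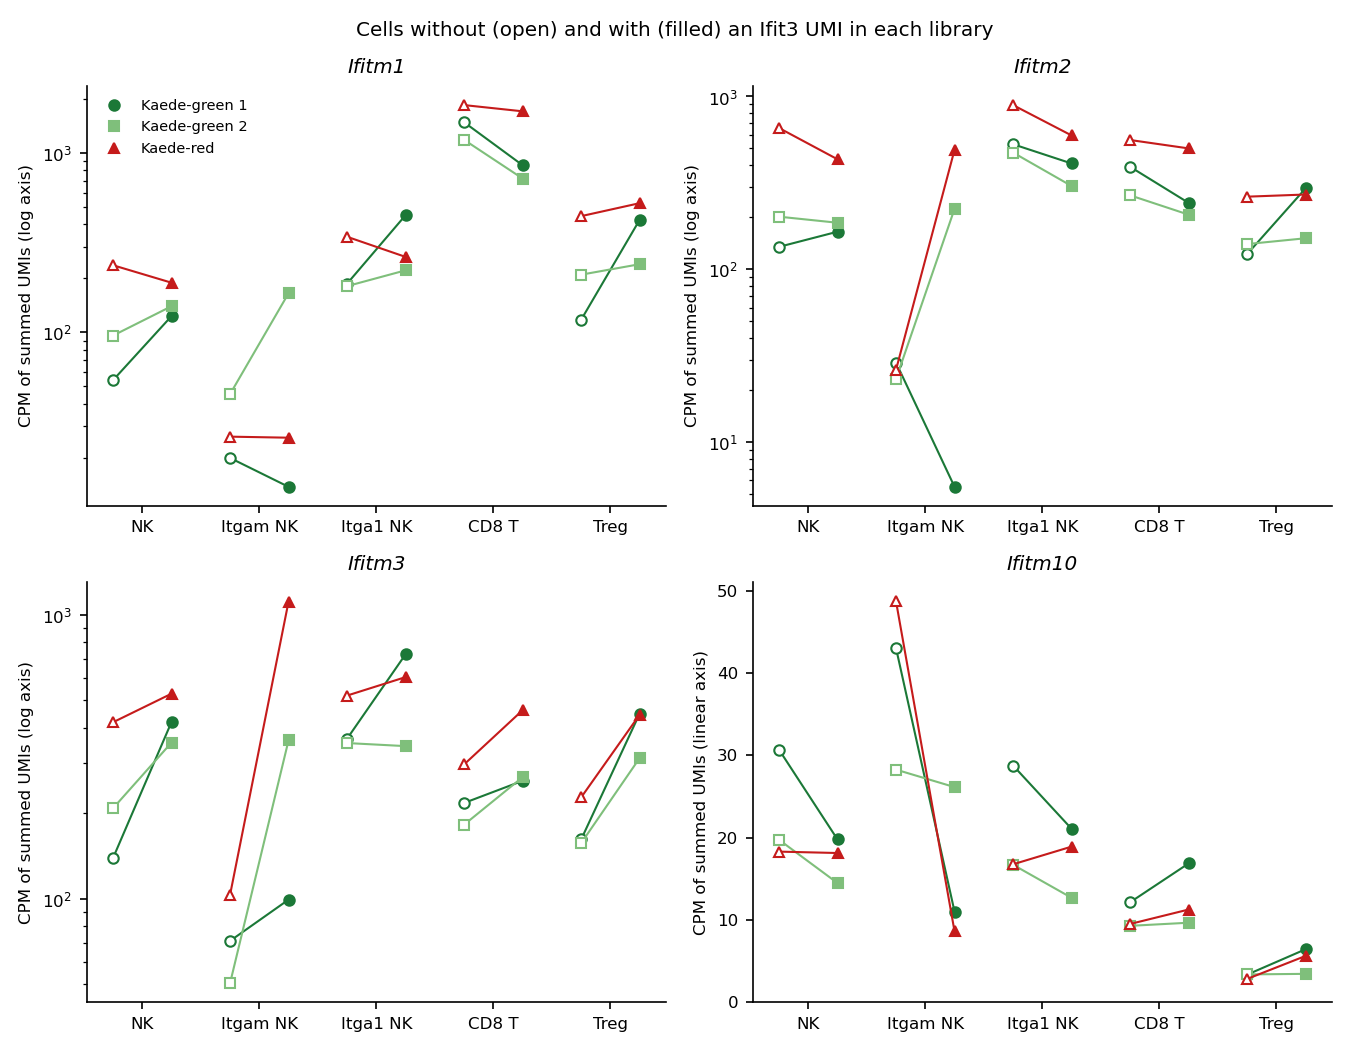
Level of each member in CPM (y) in cells with 0 and with at least 1 Ifit3 UMI (x), by class, with a line joining the sums of each library. Ifitm3 lines go up in all 3 libraries of NK cells, CD8 T cells and Tregs, while Ifitm1 and Ifitm2 lines go down in all 3 libraries of CD8 T cells.

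Other type I interferon genes rose with Ifit3 with few exceptions. Of a list of 48 type I interferon-induced genes, 45 were tested. Of these, 45 were called higher in NK cells, 45 in CD8 T cells and 44 in Tregs. The share called higher over all genes tested was 5.78%, 9.72% and 5.51% in these classes. The list's median log2 fold changes were 1.51, 1.75 and 1.17, against −0.01, 0.00 and 0.00 over all genes tested. Ifit3 is itself a readout of type I interferon, and the lists were chosen with earlier results of these data known. These counts therefore describe what the Ifit3 division separated and are no independent test. Isg15, a ubiquitin-like modifier, rose by 2.13 in NK cells, 2.44 in CD8 T cells and 1.43 in Tregs, and Bst2, the tetherin that holds budding viruses, rose by 0.97, 1.22 and 0.71. Ifi27l2a, a mitochondrial interferon-induced protein, rose by 0.72 in CD8 T cells and was at 0.14 in Tregs (adjusted p = 0.0802, edgeR). Lgals3bp, a secreted galectin-binding protein, rose by 0.52 in NK cells. Ifitm3 was thus called in the same direction as these genes in all 3 classes, and its log2 fold change was below the list's median in NK and CD8 T cells and level with it in Tregs (1.16 and 1.17).

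Of 27 interferon-γ-induced genes, 25 were called higher in NK cells, 24 in CD8 T cells and 18 in Tregs. The share called higher over all genes tested was 5.78%, 9.72% and 5.51%. The list's medians were 0.62, 0.83 and 0.55, and 1 gene of the list was called lower, in CD8 T cells. B2m, the light chain of MHC class I, rose by 0.18 in NK cells and by 0.21 in CD8 T cells. Psme1, a proteasome activator subunit, rose by 0.15 in NK cells and by 0.39 in CD8 T cells and was at 0.15 in Tregs (adjusted p = 0.143, edgeR). Psmb8, an immunoproteasome subunit, rose by 0.34 in CD8 T cells and 0.21 in Tregs. Irf8, a transcription factor, was at −0.01 in NK cells (adjusted p = 0.916, edgeR).

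Genes of tissue residence were called higher more often than all genes tested, but less often than either interferon list. Of 17 tested in NK cells 6 were called higher and 0 lower, of 18 in CD8 T cells 8 were higher and 2 lower, and of 17 in Tregs 7 were higher and 0 lower, with medians of 0.23, 0.13 and 0.25. Over all genes tested, 5.78%, 9.72% and 5.51% were called higher in NK cells, CD8 T cells and Tregs. Rgs1, which dampens chemokine receptor signals, rose by 0.39 in both CD8 T cells and Tregs. Xcl1, a chemokine for cross-presenting dendritic cells, rose by 0.23 in NK cells and fell by 0.40 in CD8 T cells. Gzmc, a granzyme, was at 0.00 in NK cells, −0.32 in CD8 T cells and −0.50 in Tregs, and passed the test in none of them. Of the genes next to Ifitm1, Ifitm2 and Ifitm3 on chromosome 7, 10 of 15 listed were tested in NK cells and 11 in CD8 T cells and Tregs, and edgeR called 0 in each. Over all genes tested, 7.79%, 17.3% and 7.75% were called in either direction. With so few neighbours tested, these counts do not set them apart from other genes.

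**Figure D3:**
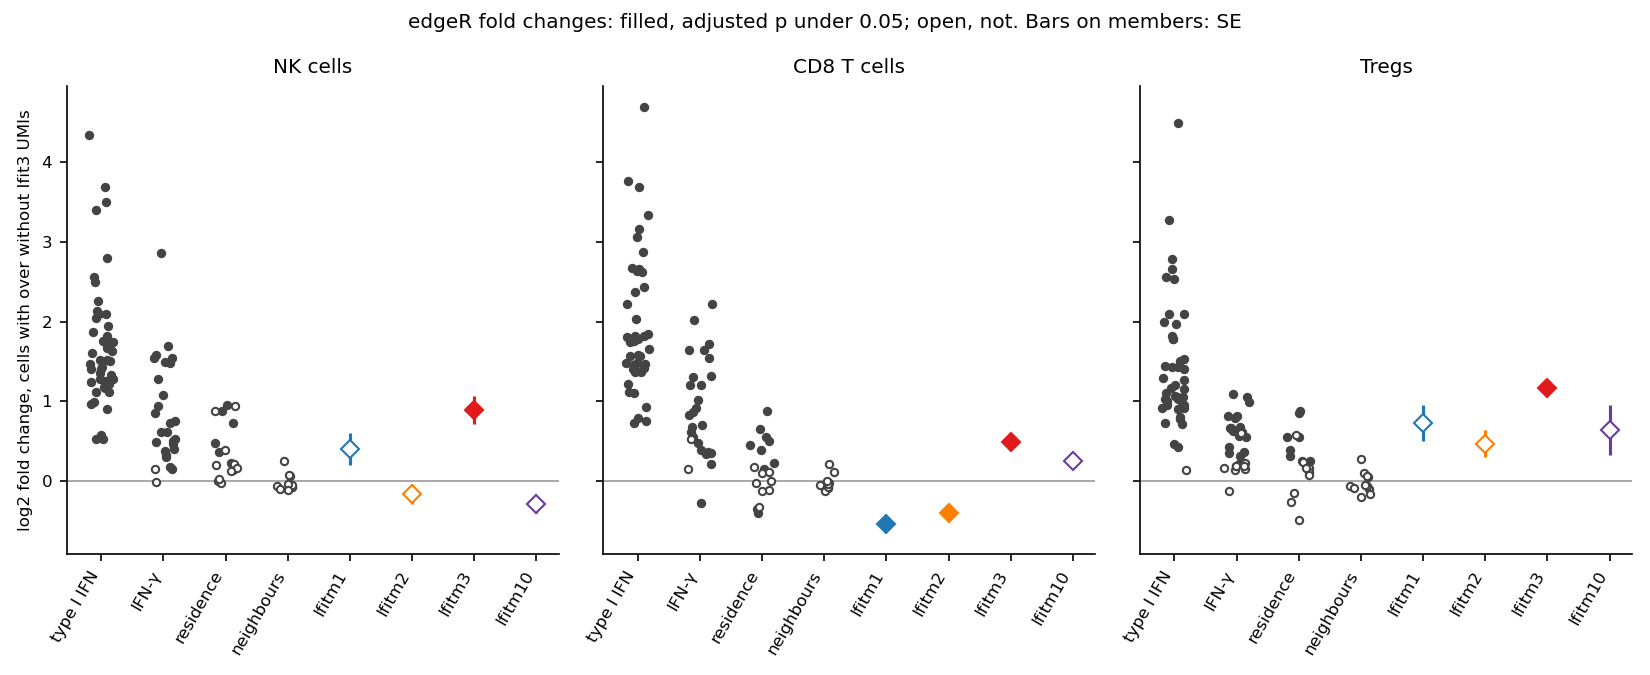
Log2 fold change (y) of each member and of the listed genes (x) between cells with at least 1 and with 0 Ifit3 UMIs, by class, from edgeR with standard errors for the members. Ifitm3 lies above 0 in all classes, at 0.89, 0.49 and 1.16, and Ifitm1 and Ifitm2 lie below 0 in CD8 T cells, at −0.54 and −0.40.

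Whether the Ifit3 difference was itself different between classes was tested as an interaction over 12 sums. Between CD8 T and NK cells edgeR called 0 of 12584 genes, with 770 at an unadjusted p under 0.05 and 37 called by DESeq2. The members' interactions, CD8 T minus NK, were −0.96 for Ifitm1 (adjusted p = 0.775, edgeR), −0.25 for Ifitm2 (0.990), −0.40 for Ifitm3 (0.938) and 0.58 for Ifitm10 (0.553). The fall of Ifitm1 in CD8 T cells is therefore not shown to differ from its value in NK cells.

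Between Itga1 and Itgam NK cells Ifitm2 was 1 of 5 genes called of 9025 (0.0554%), at −3.30 ± 0.59 (SE, adjusted p = 0.0395, edgeR). Ifitm2 went from 529 to 409, from 473 to 303 and from 891 to 595 CPM in Itga1 NK cells and from 28.8 to 5.51, from 23.2 to 224 and from 26.2 to 491 CPM in Itgam NK cells. Kaede-green 1 went down in both, and further on the log2 scale in Itgam NK cells, which is the opposite of the sign of the fitted value. The Itgam NK cells with Ifit3 numbered only 55, 68 and 12, and 1 cell gave 56.2% of their Ifitm2 UMIs in Kaede-green 2 and 75.4% in Kaede-red. The other genes called were C1qa, C1qb and Apoe, which are macrophage transcripts, and Basp1, a membrane-bound signaling protein. Without cells holding a UMI of Lyz2, C1qb or Cd79a, Ifitm2 was the 1 gene called, at −3.12 (adjusted p = 0.0329, edgeR). The call was lost in 9 of 12 alternatives, among them DESeq2 (adjusted p = 1.0), no library block (1.0), without Kaede-green 2 (1.0), without Kaede-red (0.797) and cells of 5000 to 15000 UMIs (−1.03, adjusted p = 0.985), and the value was −0.00745 with Ifit3 counted after thinning. No other member passed, with −2.11 for Ifitm3 (adjusted p = 0.386, edgeR).

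Over 18 points, which were the 2 integrin NK groups, the 2 Havcr2 groups of CD8 T cells, Tregs and myeloid cells in each of 3 libraries, Pearson's r of log2(CPM + 1) with Ifit3 was 0.383 for Ifitm1, 0.120 for Ifitm2, 0.196 for Ifitm3 and −0.374 for Ifitm10. The points share libraries and differ in depth, so no p is given. Ifitm2 and Ifitm3 were most alike within the family (r = 0.918), Ifitm1 was less like either (0.722 and 0.490), and Ifitm10 ran against Ifitm3 (−0.824). The genes whose levels were most like those of Ifitm1 among 7124 genes were Tspan31, Pstpip1, Nrp1, Prelid2 and Mthfd2 (r of 0.907 to 0.865). Those most like Ifitm2 were Ifitm3, Tubb6, Tkt, Sdad1 and Ywhag (0.918 to 0.895), and those most like Ifitm3 included Akr1a1, Asah1, Slc6a6 and Adora2b (0.972 to 0.944). Without the 3 myeloid points r was 0.811, 0.686, 0.677 and 0.596 for these genes of Ifitm3, so their likeness rested largely on the myeloid cells, and 0.797, 0.838, 0.793 and 0.816 for Tubb6, Tkt, Sdad1 and Ywhag, while that of Ifitm2 with Ifitm3 was 0.925. Ifitm10 was most like Pim2, Ctla2a, Gm33104, Klhdc2 and Sh2d3c (0.976 to 0.963). No gene of the type I interferon list was among them. That list holds 48 genes and 7124 were searched, so nothing is read from this absence. Ifit3 and the genes that define the cell groups were left out of this search, so the absence of Ifit3 tells nothing.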

How the data were processed

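The files deposited for the 3 droplet libraries (10x 3' chemistry) hold raw UMI counts, after the authors' barcode filtering and before any normalization. The submitters' processing notes name Cell Ranger 6.1.2 and mm10, and the matrix header names Cell Ranger 6.0.1. No column was left without a sample (0 columns of values without a sample). Total UMIs per library were 87193225, 129438292 and 175848894 over 10498, 12327 and 11956 barcodes.

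Kept cells had 1000 to 6000 detected genes, with mitochondrial transcripts below 7.5% of UMIs. Groups were set by raw UMIs of marker genes as given in the report, and no doublet caller was run. UMIs were summed per library and group and given as CPM with exact Poisson 95% intervals. Shares of cells with a UMI were taken after thinning to 2000 UMIs, with exact binomial 95% intervals. Both kinds of interval cover counting error only. Log2 ratios used a count of 0.5 added to both sides. The Ifit3 comparisons used edgeR 4.0.16 (TMM, filterByExpr, quasi-likelihood test) in R 4.3.3 with an adjusted p of 0.05 as threshold, and Ifit3 itself was left out of the results. Each library supplied both sides of a comparison, which pairs the sums, and library entered the model as a block. The scripts were tested on simulated data. DESeq2 1.42.0 was an alternative, as were no filter, no block, each library left out, a depth window, thinned or stricter Ifit3 counts, Ifit1 for Ifit3, all barcodes, and exclusion of cells of mixed lineage. Python 3.11.15 was used for the rest.

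Identifiers were matched to GENCODE for 32158 of 32285 genes (99.6%), and start-site windows came from RefSeq on GRCm38.p6. The ISRE and GAS were searched as textbook consensus forms, which no file used here supplies. Besides the members, the 3 genes of each list with the highest CPM and the 5 genes most like each member were named by rule, and Xcl1, Gzmc, Ifitm6 and the genes called in the integrin interaction follow from their lists or counts. One gene named by this rule is not reported here. The members and lists were chosen with earlier results of these data known.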

Additional observations from a re-analysis of the deposited data

Results flagged for a closer look

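The Ifit3 difference of Ifitm2 differed between Itga1 and Itgam NK cells by a test of the difference itself, at −3.30 on the log2 scale (edgeR, adjusted p = 0.0395). The Itgam NK cells with Ifit3 held Ifitm2 at 5.51, 224 and 491 CPM in the library order of the report, and the last of these came from 12 Kaede-red cells. Over 12 alternatives the value ran from −4.2 to −0.00745 and was called in 3, so the direction was kept and the call was mostly lost.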

How the results depend on the processing

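Every alternative changed 1 choice, and the cause of each change was not tested. The rise of Ifitm3 with Ifit3 kept its direction under all alternatives run. It was called in 11 of 13 in NK cells, with adjusted p of 0.224 by DESeq2 and 1.0 without the library block as exceptions, in 12 of 13 in CD8 T cells (no block, 0.603) and in 12 of 12 in Tregs (5.06e-52 to 0.00636). In CD8 T cells Ifitm1 was lower in 13 of 13 alternatives and called in 10 (DESeq2 0.0839, no block 0.718, without Kaede-green 2 0.0984), and Ifitm2 was lower in 13 and called in 9 (no block 0.814, without Kaede-green 2 0.0809, Ifit1 for Ifit3 0.0614, Havcr2 term 0.0665). In NK cells the log2 fold change ran from −0.968 to 0.886 for Ifitm1 (called in 4 of 13), from −1.17 to 0.231 for Ifitm2 (4) and from −0.515 to −0.187 for Ifitm10 (5). In Tregs it ran from 0.0607 to 1.03 for Ifitm1 (called in 5 of 12) and from −0.228 to 0.671 for Ifitm2 (3).

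The number of genes called in NK cells (890) was 546 with DESeq2, 1441 without a filter, 0 without the replicate block, 2051 with Ifit3 counted after thinning, 1869 with Ifit3 at 2 or more, 586 with all barcodes, and 653 to 927 with a library left out. In CD8 T cells (2145) it was 1208 with DESeq2, 174 without the block, 3769 after thinning, and 678 to 2270 with a library left out, lowest without Kaede-green 2. In Tregs (798) it was 373 with DESeq2, 1339 without a filter, 200 without the block, 494 at 5000 to 15000 UMIs, 1612 with Ifit3 at 2 or more, and 445 to 1169 with a library left out, lowest without Kaede-green 2. For the integrin interaction (5) it was 0 with DESeq2, 77 without a filter, 0 without the block, 3 at 5000 to 15000 UMIs, 0 after thinning, 2 by Ifit1, 3 with Ifit3 at 2 or more, 1 without cells of mixed lineage, 32 without Kaede-green 1 and 0 without Kaede-green 2. For CD8 T against NK cells (0) it was 37 with DESeq2, 13 without a filter, 23 without Kaede-red, 6 at 5000 to 15000 UMIs, 1 after thinning, and 3 with Ifit3 at 2 or more or with all barcodes.

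Signs turned as follows on the log2 scale. In NK cells Ifitm1 was at −0.186 at 5000 to 15000 UMIs and −0.968 after thinning (adjusted p = 0.00104, edgeR), and Ifitm2 at 0.124 without Kaede-red, 0.231 by Ifit1 and 0.141 with the integrin group as a further term. In Tregs Ifitm2 was at −0.228 after thinning and Ifitm10 at −0.00546 by Ifit1. The integrin interaction of Ifitm1 was 0.774 without Kaede-green 2, 1.04 by Ifit1 and 1.00 with Ifit3 at 2 or more. For CD8 T against NK cells, Ifitm1 was at 0.398 after thinning, Ifitm2 at 0.00123 without the block, 0.108 without Kaede-green 1 and 0.492 after thinning, and Ifitm3 at 0.0521 without Kaede-green 1 and 0.0144 after thinning. With a library left out, Ifitm2 in NK cells ran from −0.394 to 0.124, the integrin interaction of Ifitm1 from −1.88 to 0.774, and the CD8 T against NK interaction from −0.668 to 0.108 for Ifitm2 and from −0.807 to 0.0521 for Ifitm3. The CD8 T to NK ratio of Ifitm3 was 0.276 by means over cells, 0.654 at 5000 to 15000 UMIs, 0.0285 without cells of mixed lineage and −0.205 to 0.062 with a library left out, and the number of members higher in CD8 T cells in every library went from 1 to 3, 3 and, without Kaede-red, 2. The CD8 T to Treg ratio of Ifitm3 was −0.0144 by means over cells, −0.0225 with all barcodes and −0.0989 to 0.116 with a library left out, lowest without Kaede-red. By colour, Ifitm10 was at 0.233 in NK cells at 5000 to 15000 UMIs and from −0.502 to 0.103 in CD8 T cells with a Kaede-green library left out.

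The Havcr2 term, the integrin term and the exclusion of cells in both T cell groups were chosen after seeing the data. The last moved the CD8 T to Treg ratio of Ifitm1 from 2.11 to 4.40. Values of the 76 Itgam NK cells of Kaede-red and of the 30 to 94 myeloid cells rest on few cells.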
